A study of Xenopus laevis with 9 samples.

Results

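Annexins are the members described here: every probe set on the array whose platform gene symbol begins with anxa and a number, copies such as anxa1.3 included. They were chosen by gene symbol alone, and 25 of 15491 probe sets met the rule. Of these, 24 were annotated to 1 gene and 1 to both homeologs of anxa1.1. Together they covered 15 of the 7531 genes named on the array, counting homeologs and tandem copies apart. The family was taken up because earlier results of these data had singled out anxa1.3.S, so the values of that gene are given as a description without a p-value. The study exposed whole Xenopus laevis larvae at stage 54 (a second label gives a range of stages ending there) to 20 nM of triiodothyronine (T3), the active thyroid hormone, for 48 h, to 20 nM T3 for 6 h, or to vehicle for 48 h. All larvae were kept in FETAX, a buffered amphibian medium, and the labels name no strain, genotype or sex. RNA was taken from the tails, and each of the 3 arrays of a group was made from a pool of 3 tails. No vehicle tails were taken at 6 h, so T3 6 h and vehicle tails differ both in hormone and in when they were collected.

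Annexins are cytosolic proteins that bind acidic phospholipids of membranes when calcium rises. Each has a conserved core of repeated domains, which carries the calcium sites, and an N-terminal tail that differs between members and binds partners such as S100 proteins. In mammals they are known for organising membrane domains, for vesicle traffic, and for resealing torn plasma membranes in muscle and epithelium. Annexin A1 is also known there as a glucocorticoid-regulated mediator that limits inflammation, annexin A2 as a cell-surface binder of plasminogen, and annexin A5 as a protein that coats phosphatidylserine exposed on dying cells. The larval tail, with its muscle, skin and notochord, is the organ that thyroid hormone removes at metamorphosis. No annexin sequence is printed, as none was held in the sources used here.

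Values are log2 intensities over the median of the array, so that 0 is the median probe set of an array. A level filter kept 8121 probe sets that lay above 0 in at least 3 of the 9 arrays, and 23 of the 25 annexin probe sets passed it. The other annexin probe sets, Xl.22165.1.A1_at of anxa7.S and Xl.22369.1.A1_x_at of anxa5.S, lay below 0 on every array. Within groups, arrays correlated across the tested probe sets at r = 0.966 to 0.988. On the first principal component, with 47.2% of the variance, T3 48 h array 1 lay at 15.2, between T3 48 h arrays 2 and 3 at 38.8 and 30.6 and the vehicle and T3 6 h arrays at -16.6 to -11.3. Counts of called annexin probe sets at T3 48 h, and many single results, are therefore given with and without array 1. That component separates T3 48 h from all other arrays, and array 1 was the T3 48 h array least shifted along it. Leaving it out thus favours calls at 48 h. Against vehicle the share of tested probe sets called rose from 4.94% to 11.1% higher and from 6.05% to 12.4% lower. Calls without array 1 are given as a description of this dependence. Muscle markers, read as a check of the labelled tissue, had 26 of 26 probe sets past the level filter, and epidermal markers 29 of 35. In the first comparison below, and in all that follow, fewer cells of a type and less RNA per cell cannot be told apart.

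The comparison of T3 48 h with vehicle asked which annexin transcripts had changed after a prolonged exposure. anxa1.3.S lay higher in T3 48 h tails by 3.32 on the log2 scale, anxa9.L fell 2.44-fold and anxa7.L fell 1.44-fold. Beside anxa1.3.S, 22 annexin probe sets were tested, of which 0 rose and 2 fell at an adjusted p under 0.05 in limma, against 4.94% of all tested probe sets called higher and 6.05% called lower. At an unadjusted p under 0.05, 1 of the 22 was higher and 3 were lower. The median log2 difference of the 22 was -0.086, beside -0.046 over all tested probe sets, and 16 of 22 were negative. Shares of all tested probe sets at that threshold, or with a negative difference, were not taken. Those counts are therefore not read as a result about annexins. Without T3 48 h array 1, 3 were called higher and 5 lower, while the share of all tested probe sets called higher was then 11.1% and the share called lower 12.4%. The added calls were anxa2.L and the anxa5.S probe sets Xl.12815.1.A1_at and Xl.23787.3.S1_at, higher, and anxa6.L, Xl.22165.1.A1_s_at of anxa7.S and Xl.23706.1.A1_at of anxa5.S, lower.

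**Figure D1:**
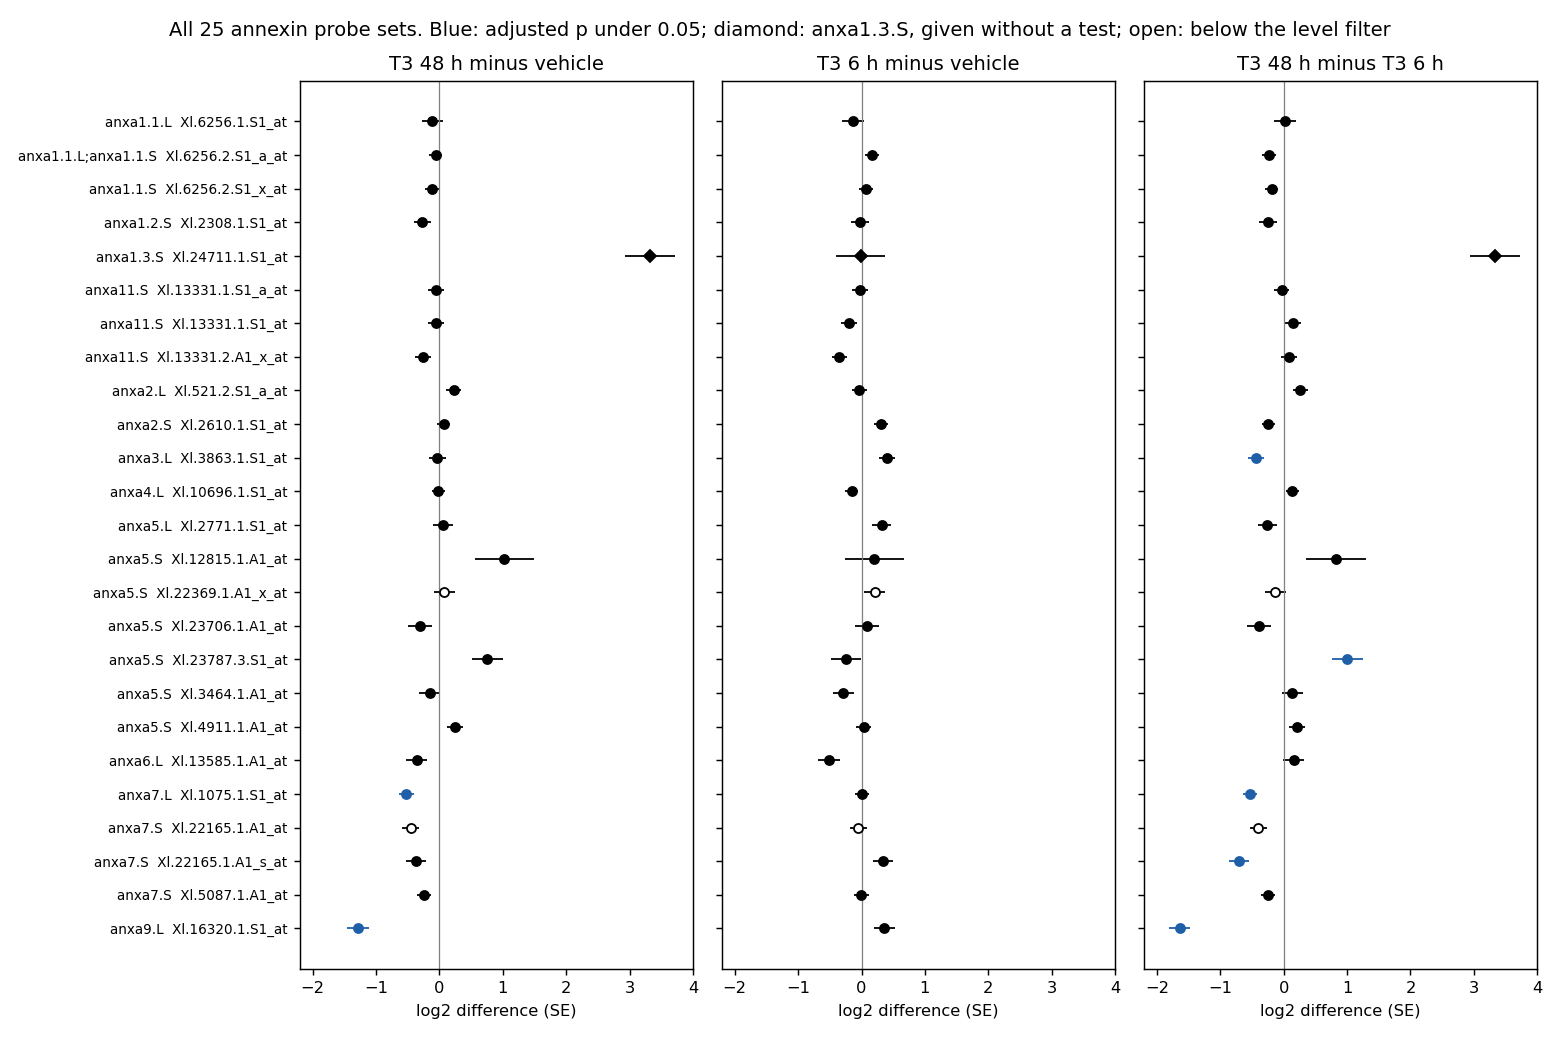
Log2 difference (x axis, with SE bars from the limma fit) of each of the 25 annexin probe sets (rows) for T3 48 h minus vehicle, T3 6 h minus vehicle and T3 48 h minus T3 6 h. In the first panel anxa1.3.S lies at 3.32 and anxa9.L at -1.29, and the other probe sets lie between -0.52 and 1.03.

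The anxa1 genes of Xenopus laevis lie in tandem: in the RefSeq table of the assembly Xenopus_laevis_v10.1, anxa1.1.S, anxa1.2.S and anxa1.3.S are consecutive genes, as are their L homeologs. RefSeq lists anxa8.S as an older name of anxa1.3.S, and no probe set of the array is annotated to anxa1.2.L or anxa1.3.L. On the T3 48 h arrays anxa1.3.S was at 4.54, 5.92 and 4.93. It was at 1.61, 2.58 and 1.18 on the T3 6 h arrays and at 1.61, 1.66 and 2.14 on the vehicle arrays. Every T3 48 h array lay above every T3 6 h and vehicle array, and all 9 values lay above the array median. The T3 48 h mean was 5.13 ± 0.71, against 1.79 ± 0.72 in T3 6 h tails and 1.81 ± 0.29 in vehicle tails (SD, n = 3 each). The log2 difference was 3.32 ± 0.39 for T3 48 h minus vehicle and 3.34 ± 0.39 for T3 48 h minus T3 6 h (SE). For T3 6 h minus vehicle it was -0.016 ± 0.39, and that sign turned when vehicle array 3, T3 6 h array 1 or T3 6 h array 3 was left out. Within the T3 48 h group the lowest array was array 1, the same that stood apart over all genes. Without it the difference from vehicle was 3.62, and without array 2, the highest, it was 2.93.

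The tandem neighbours of anxa1.3.S gave overlapping groups in all comparisons. For anxa1.2.S, the T3 48 h arrays were at 5.63, 5.94 and 6.18, the T3 6 h arrays at 6.11, 6.26 and 6.12, and the vehicle arrays at 6.24, 6.05 and 6.26. The anxa1.2.S difference of T3 48 h minus vehicle was -0.27 ± 0.14 (SE, adjusted p = 0.210 in limma). Means of anxa1.1.L were 4.67 ± 0.33 in T3 48 h tails, 4.65 ± 0.15 in T3 6 h tails and 4.78 ± 0.16 in vehicle tails (SD, n = 3 each). For anxa1.1.S they were 7.12 ± 0.15, 7.31 ± 0.16 and 7.24 ± 0.11, in the same order. The probe set annotated to both anxa1.1 homeologs had means of 7.07 ± 0.06, 7.30 ± 0.19 and 7.13 ± 0.15. The anxa1.1.S probe set carries the suffix _x, which Affymetrix gives where some probes also match other transcripts, so the homeologs of anxa1.1 may not be read apart. None of these 4 probe sets was called in any comparison, and the T3 48 h minus vehicle differences of the anxa1.1 probe sets lay between -0.12 and -0.061. Whether their responses differ from that of anxa1.3.S was not tested.

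Likeness to anxa1.3.S was measured as the root mean square difference, over the 9 arrays, of log2 values set to each probe set's own vehicle mean. Among 5568 tested probe sets with 1 gene symbol, the closest were mmp13l.L, a collagenase, at 0.74, and mmp11.L, the metalloproteinase stromelysin-3, at 0.74. Next came tgm2.S, a transglutaminase that cross-links proteins, at 0.75, anpep.L, a membrane aminopeptidase, at 0.75, and the keratin krt78.6.L at 0.76. Their T3 48 h minus vehicle differences were 2.42, 2.38, 2.37, 3.43 and 3.51, given without a test because they were picked for this pattern. On the T3 48 h arrays mean levels were 2.60 for mmp13l.L, 1.51 for anpep.L and 1.55 for krt78.6.L, against 0.19, -1.92 and -1.97 on the vehicle arrays. Since anpep.L and krt78.6.L passed the level filter only through T3 48 h arrays, the size of their differences, and so their place in this ranking, depends on the background correction. All 6 genes were measured on the same 9 arrays, in which array 1 of T3 48 h stood apart. Of the other annexin probe sets, Xl.12815.1.A1_at of anxa5.S ranked 79 by this measure, at 1.49, and Xl.23787.3.S1_at of anxa5.S ranked 170, at 1.58. Both lay well beyond the 0.74 to 0.76 of the 5 closest, and neither was called at 48 h against vehicle over all 9 arrays. The anxa9.L probe set ranked 5501, at 2.72.

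**Figure D2:**
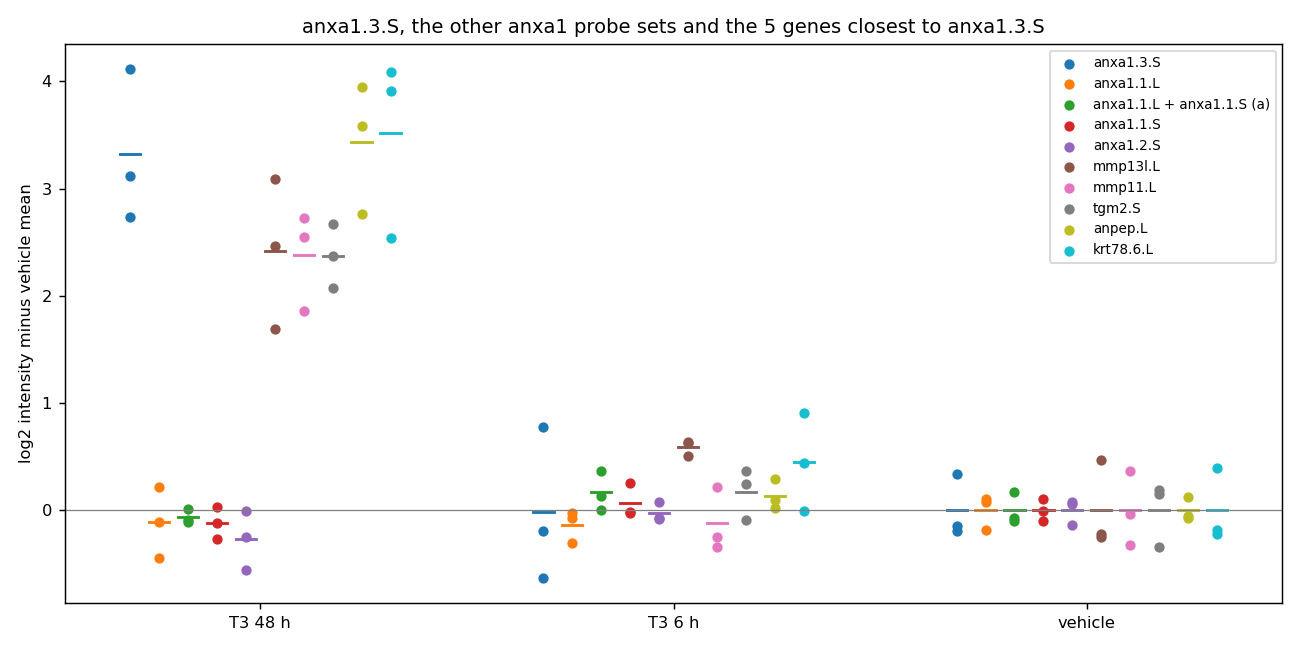
Log2 intensity minus the vehicle mean of the same probe set (y axis) on each array (points) with group means (bars), for T3 48 h, T3 6 h and vehicle tails. anxa1.3.S and the 5 genes closest to it lie at group means of 2.37 to 3.51 in T3 48 h tails, and the other anxa1 probe sets lie at -0.27 to -0.061 there ((a) marks the probe set of both anxa1.1 homeologs).

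anxa9.L, for which RefSeq also lists the name pemphaxin, belongs to the annexin A9 type, whose human protein lacks working calcium sites in its core. It was at -0.45, -0.59 and -0.61 on the T3 48 h arrays. On the T3 6 h arrays it was at 0.71, 1.31 and 1.26, and on the vehicle arrays at 0.77, 0.80 and 0.63. The T3 48 h arrays lay close together, below the array median and below all 6 other arrays. The mean was -0.55 ± 0.09 in T3 48 h tails, 1.09 ± 0.33 in T3 6 h tails and 0.74 ± 0.09 in vehicle tails (SD, n = 3 each). T3 48 h minus vehicle was -1.29 ± 0.17 (SE, adjusted p = 0.00238 in limma), a fall of 2.44-fold. T3 48 h minus T3 6 h was -1.64 ± 0.17 (adjusted p = 0.000457), a fall of 3.12-fold, whereas T3 6 h minus vehicle, at 0.36 ± 0.17, did not pass (adjusted p = 0.336). The probe set passed the level filter through its T3 6 h and vehicle arrays. In the fit of all 15491 probe sets, where no such filter acts, the T3 48 h minus vehicle difference was the same and its adjusted p was 0.00558. Since the T3 48 h values lay below the array median, the size of the fold depends on the authors' background correction.

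**Figure D3:**
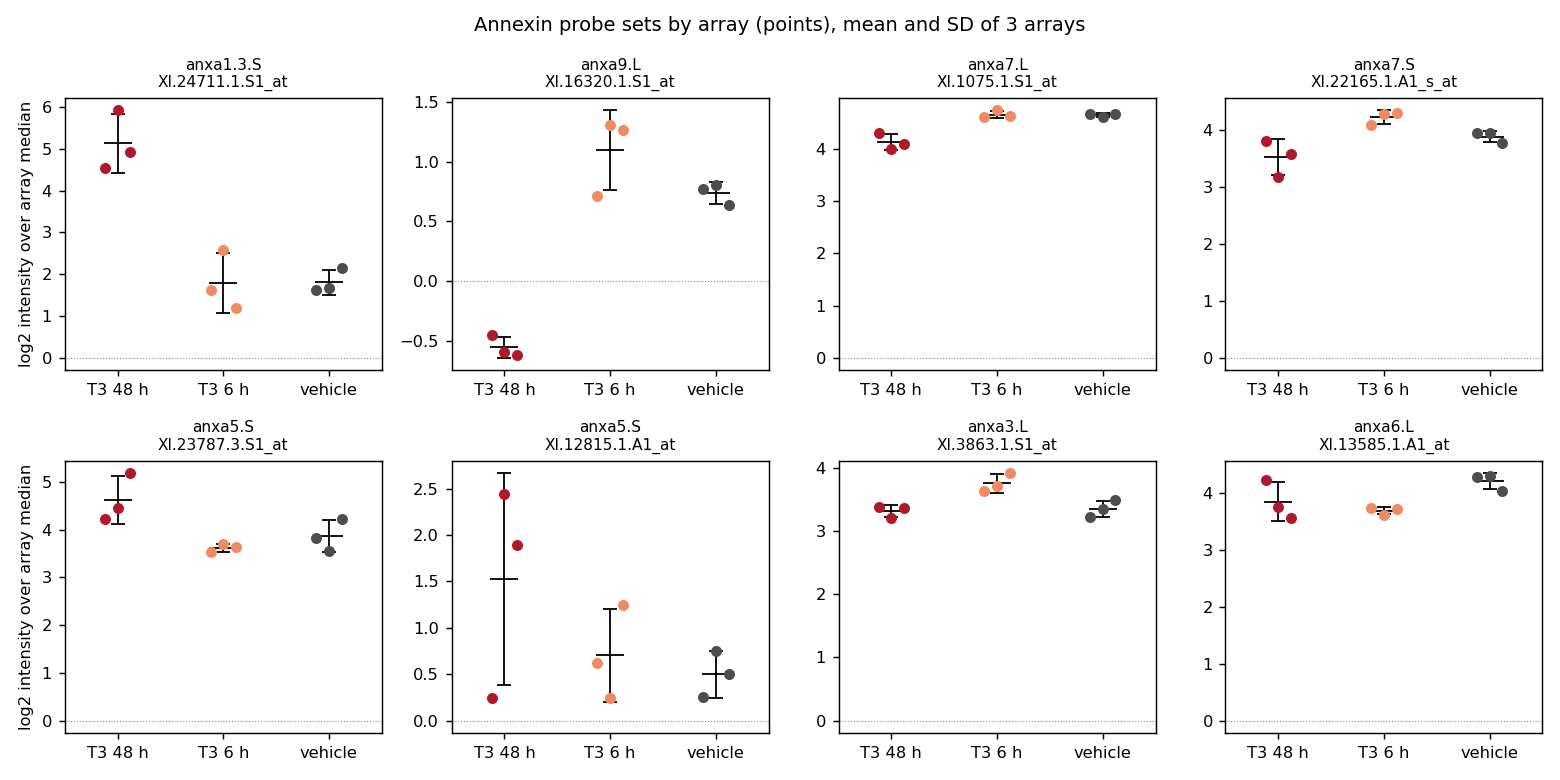
Log2 intensity over the array median (y axis) on each array (points), with the mean and SD of 3 arrays, for 8 annexin probe sets in T3 48 h, T3 6 h and vehicle tails. The dotted line is the array median, anxa9.L lies below it in T3 48 h tails only, and the T3 48 h points of Xl.12815.1.A1_at of anxa5.S run from 0.25 to 2.44.

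Annexin A7, once called synexin, is known for aggregating and fusing membrane vesicles and binds the calcium proteins sorcin and ALG-2 through its long N-terminal tail. anxa7.L was at 4.29, 4.0 and 4.08 in T3 48 h tails, at 4.59, 4.73 and 4.63 in T3 6 h tails, and at 4.67, 4.61 and 4.66 in vehicle tails. All T3 48 h arrays lay below all others, while T3 6 h and vehicle arrays overlapped. T3 48 h minus vehicle was -0.52 ± 0.11 (SE, adjusted p = 0.0212 in limma), a fall of 1.44-fold, and T3 48 h minus T3 6 h was -0.53 ± 0.11 (adjusted p = 0.0115). The call against vehicle was lost when any 1 vehicle array was left out (adjusted p = 0.0738, 0.0611 and 0.0647 for arrays 1, 2 and 3). It was also lost on leaving out T3 48 h array 2 (0.0729) or array 3 (0.0715), and with only the 2 groups in the fit (0.0521). Over all 16 alternatives its adjusted p lay between 0.00463 and 0.0738 and the difference between -0.61 and -0.46. T3 6 h minus vehicle was 0.0049 for anxa7.L (adjusted p = 0.990).

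The 3 probe sets of the homeolog anxa7.S had negative T3 48 h minus vehicle differences that did not pass. Xl.22165.1.A1_s_at was at 3.80, 3.18 and 3.59 in T3 48 h tails, 4.09, 4.29 and 4.31 in T3 6 h tails, and 3.95, 3.95 and 3.78 in vehicle tails. Its T3 48 h arrays overlapped the vehicle arrays and lay below the T3 6 h arrays. The difference from vehicle was -0.37 ± 0.16 (adjusted p = 0.160) and from T3 6 h -0.70 ± 0.16 (adjusted p = 0.0145), a fall of 1.63-fold relative to T3 6 h. The call against T3 6 h was lost when T3 6 h array 3 was left out (0.0571). Xl.5087.1.A1_at was at 1.49, 1.55 and 1.51 in T3 48 h tails, against 1.66, 1.82 and 1.80 in vehicle tails, a difference of -0.25 ± 0.11 (adjusted p = 0.175). These arrays did not overlap. Below the level filter, Xl.22165.1.A1_at was at -0.45 ± 0.13 relative to vehicle, with an adjusted p of 0.0886 in the fit of all probe sets. The suffix _s marks a probe set that several transcripts share, so Xl.22165.1.A1_s_at can also read the other homeolog.

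Annexin A11 also has a long N-terminal tail that binds ALG-2, and in mammals it tethers RNA granules to lysosomes. All 3 probe sets of anxa11.S passed the level filter and none was called in a comparison. Xl.13331.1.S1_a_at averaged 1.29 ± 0.14 in T3 48 h tails, 1.33 ± 0.10 in T3 6 h tails and 1.35 ± 0.06 in vehicle tails (SD, n = 3 each). Xl.13331.1.S1_at averaged 2.49 ± 0.05, 2.35 ± 0.20 and 2.55 ± 0.05, in the same order. For Xl.13331.2.A1_x_at the T3 6 h arrays, at 0.42, 0.72 and 0.54, and the T3 48 h arrays, at 0.55, 0.69 and 0.70, lay below the vehicle arrays at 0.94, 0.95 and 0.84. Its differences from vehicle were -0.35 ± 0.12 at 6 h and -0.26 ± 0.12 at 48 h, with adjusted p of 0.224 and 0.183.

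Annexin A5 was read by 1 probe set for anxa5.L and 6 for anxa5.S, which disagreed. Xl.23787.3.S1_at was at 4.23, 4.46 and 5.18 in T3 48 h tails, 3.52, 3.70 and 3.63 in T3 6 h tails, and 3.82, 3.56 and 4.22 in vehicle tails. The lowest T3 48 h array lay just above the highest vehicle array and well above the T3 6 h arrays. Its difference from vehicle was 0.76 ± 0.24 (SE, adjusted p = 0.0680 in limma) and did not pass, with an adjusted p of 0.0212 without T3 48 h array 1. T3 48 h minus T3 6 h was 1.01 ± 0.24 (adjusted p = 0.0170), a rise of 2.01-fold relative to T3 6 h, lost on leaving out T3 6 h array 1 (0.0593) or array 3 (0.0530). Xl.12815.1.A1_at was at 0.25, 2.44 and 1.89 in T3 48 h tails, 0.62, 0.24 and 1.24 in T3 6 h tails, and 0.25, 0.75 and 0.50 in vehicle tails. T3 48 h array 1 lay level with the lowest vehicle array, and arrays 2 and 3 above all others. The difference from vehicle was 1.03 ± 0.47 (adjusted p = 0.171), and without array 1 it was 1.66 (adjusted p = 0.00522).

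The remaining annexin A5 probe sets had smaller differences, and none was called over all 9 arrays. Xl.4911.1.A1_at lay higher in T3 48 h tails, at 2.39, 2.54 and 2.65, than in vehicle tails, at 2.20, 2.30 and 2.35, without overlap, a difference of 0.24 ± 0.12 (adjusted p = 0.203). Xl.23706.1.A1_at went the other way, at 0.37, -0.16 and -0.30 in T3 48 h tails against 0.47, 0.16 and 0.20 in vehicle tails, with overlap. Its difference was -0.31 ± 0.19 (adjusted p = 0.294), and -0.51 without array 1 (adjusted p = 0.0453). With array 1 left out, only its T3 6 h and vehicle arrays lay above the array median. The size of that difference therefore depends on the background correction. Xl.3464.1.A1_at was at -0.15 ± 0.17 and Xl.22369.1.A1_x_at, below the level filter, at 0.074 ± 0.17. For anxa5.L the T3 48 h arrays were at 3.57, 4.01 and 4.14, the T3 6 h arrays at 4.10, 4.23 and 4.15, and the vehicle arrays at 3.96, 3.78 and 3.80. The T3 48 h minus vehicle difference of anxa5.L was 0.059 ± 0.15 (adjusted p = 0.824), and the T3 6 h arrays lay above the vehicle arrays by 0.32 ± 0.15 (adjusted p = 0.351). Of the anxa5.S probe sets, Xl.23787.3.S1_at has S1 in its name and the other 5 have A1. The labels do not say what the letters stand for, and whether they bear on the disagreement was not tested.

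**Figure D4:**
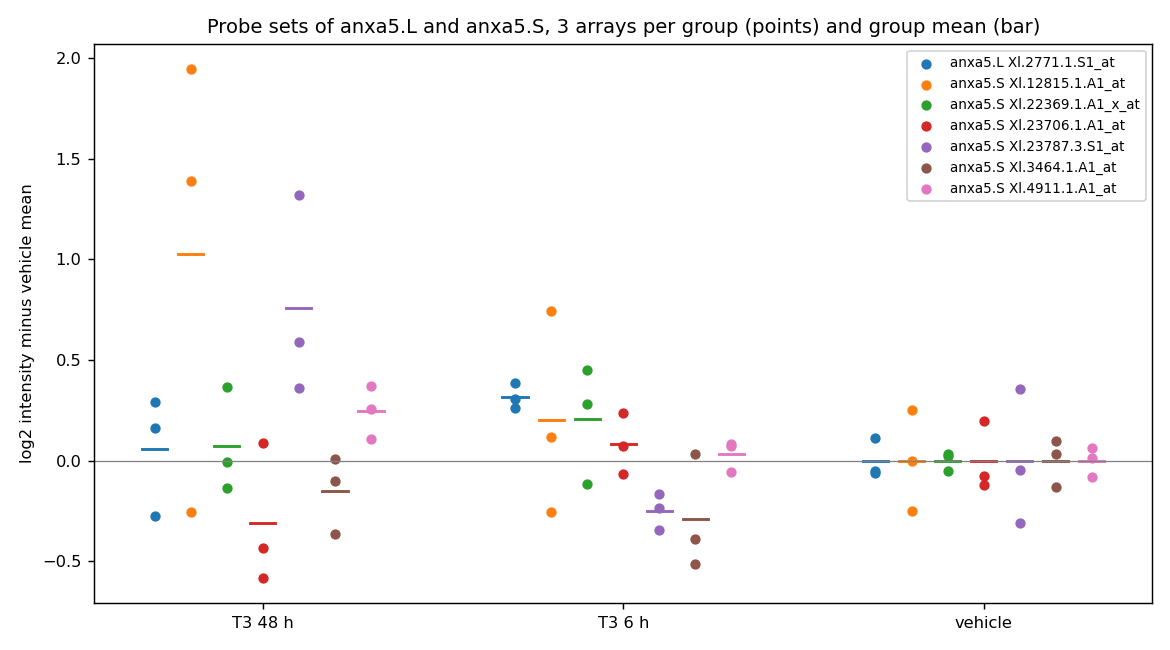
Log2 intensity minus the vehicle mean of the same probe set (y axis) for the 7 annexin A5 probe sets on each array (points) with group means (bars), in T3 48 h, T3 6 h and vehicle tails. Group means in T3 48 h tails run from -0.31 to 1.03, and the highest mean belongs to Xl.12815.1.A1_at, whose array 1 lies below 0.

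Annexin A2 binds S100A10 (p11) in a complex that links membranes to actin and, at the cell surface of mammals, binds plasminogen and its activator. anxa2.L was at 5.79, 6.13 and 6.13 in T3 48 h tails, 5.63, 5.90 and 5.73 in T3 6 h tails, and 5.75, 5.78 and 5.83 in vehicle tails. Its difference from vehicle was 0.23 ± 0.12 at 48 h (adjusted p = 0.225), and 0.34 (adjusted p = 0.0465) without T3 48 h array 1, which lay among the vehicle arrays. anxa2.S was at 5.45, 5.57 and 5.54 in T3 48 h tails, 5.74, 5.64 and 5.91 in T3 6 h tails, and 5.51, 5.50 and 5.36 in vehicle tails. The T3 6 h arrays of anxa2.S lay above both other groups, by 0.31 ± 0.10 relative to vehicle, which did not pass (adjusted p = 0.205). s100a10.L was at 4.17, 4.28 and 4.38 in T3 48 h tails, 4.20, 3.71 and 4.40 in T3 6 h tails, and 3.64, 3.51 and 3.73 in vehicle tails. All T3 48 h arrays lay above all vehicle arrays, and s100a10.L rose 1.57-fold (log2 0.65 ± 0.17 SE, adjusted p = 0.0391). That call was lost in 7 of 16 alternatives, in which the difference stayed between 0.59 and 0.71: on leaving out any 1 vehicle array (adjusted p = 0.103, 0.116 and 0.0761 for arrays 1, 2 and 3), T3 6 h array 1 (0.0555) or T3 48 h array 2 or 3 (0.104 and 0.119), and with no level filter (0.0635). Whether the changes of s100a10.L and anxa2 differ was not tested.

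**Figure D5:**
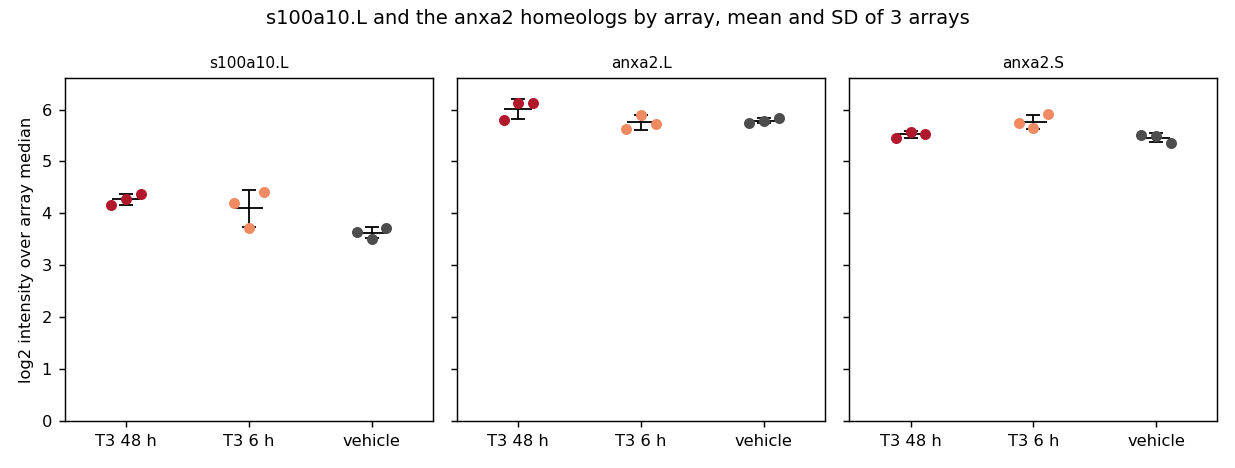
Log2 intensity over the array median (y axis) of s100a10.L and both anxa2 homeologs on each array (points), with the mean and SD of 3 arrays, in T3 48 h, T3 6 h and vehicle tails. The s100a10.L points lie at 4.17 to 4.38 in T3 48 h tails and at 3.51 to 3.73 in vehicle tails, and the T3 48 h and vehicle points of each anxa2 homeolog overlap.

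Annexins A3, A4 and A6 were each read by 1 probe set, of an L homeolog. Annexin A6 is unusual in carrying a doubled core and in mammals caps sites of membrane damage in muscle. anxa6.L was at 4.24, 3.76 and 3.57 in T3 48 h tails, 3.74, 3.62 and 3.73 in T3 6 h tails, and 4.29, 4.31 and 4.05 in vehicle tails. All T3 6 h arrays lay below all vehicle arrays, by -0.52 ± 0.17 (SE, adjusted p = 0.196), while in T3 48 h tails array 1 lay among the vehicle arrays. The 48 h difference was -0.36 ± 0.17 (adjusted p = 0.187) and without array 1 it was -0.55 (adjusted p = 0.0195). anxa3.L, whose human protein is abundant in neutrophils, was at 3.38, 3.22 and 3.37 in T3 48 h tails, 3.63, 3.72 and 3.92 in T3 6 h tails, and 3.23, 3.35 and 3.49 in vehicle tails. The T3 6 h arrays lay above both other groups, by 0.40 ± 0.13 relative to vehicle, which did not pass (adjusted p = 0.188). anxa3.L was 1.35-fold lower in T3 48 h tails relative to T3 6 h (log2 -0.43 ± 0.13, adjusted p = 0.0418), a call that was lost in 13 of 16 alternatives (adjusted p of 0.0174 to 0.150 over the 16). anxa4.L, of a type known in epithelia, averaged 5.62 ± 0.10 in T3 48 h tails, 5.49 ± 0.10 in T3 6 h tails and 5.64 ± 0.08 in vehicle tails (SD, n = 3 each), and was not called.

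The comparison of T3 6 h with vehicle asked for early responses. Of the 22 tested annexin probe sets beside anxa1.3.S, 0 were called higher and 0 lower in limma, where 0.172% of all tested probe sets were called higher and 0.0493% lower. At an unadjusted p under 0.05, 2 were higher, anxa3.L and anxa2.S, and 2 lower, anxa6.L and Xl.13331.2.A1_x_at of anxa11.S. The share of all tested probe sets at that threshold was not taken, so these counts are not read as a result about annexins. The median difference was 0.0017 over the 22 and 0.026 over all tested probe sets, and single differences lay between -0.52 and 0.40. With array weights, which count arrays that depart from their group less, anxa2.S and anxa3.L were called higher (adjusted p = 0.0453 and 0.0464 in limma). The share of all tested probe sets called was not taken for that fit.

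The comparison of T3 48 h with T3 6 h contrasted both exposures directly. It is also the difference between their differences from vehicle, since they share the vehicle arrays. Of the 22 probe sets, 1 was called higher, Xl.23787.3.S1_at of anxa5.S, and 4 lower, those of anxa9.L, anxa7.L and anxa3.L and Xl.22165.1.A1_s_at of anxa7.S. Over all tested probe sets 7.51% were called higher and 11.9% lower. The median difference was -0.11 over the 22, beside -0.058 over all tested probe sets. Without T3 48 h array 1, 3 were called higher and 5 lower, beside 11% of all tested probe sets called higher and 14.7% called lower. The later collection of the T3 48 h tails cannot be told apart from their longer exposure.

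Of 31 genes listed as binding annexins, acting with them in membrane repair or joining them in the epidermal cell envelope, 11 had probe sets, and 18 of 19 probe sets were tested. Over all 9 arrays 1 was called higher at 48 h than in vehicle, s100a10.L, and 2 lower, capn1.L and a probe set of ppl.L, beside 4.94% and 6.05% of all tested probe sets. The median difference was -0.040, and -0.046 over all tested probe sets. capn1.L, a calpain protease of membrane repair, was at 4.45, 4.79 and 4.45 in T3 48 h tails against 4.95, 5.03 and 5.02 in vehicle tails. The capn1.L difference was -0.44 ± 0.12 (SE, adjusted p = 0.0421 in limma), with the groups apart, but its call was lost in 12 of 16 alternatives (adjusted p of 0.0108 to 0.131 over the 16). Xl.13246.1.S1_at, 1 of 3 probe sets of ppl.L, the envelope and desmosome protein periplakin, fell 1.85-fold (log2 -0.88 ± 0.18, adjusted p = 0.0162), lost in 4 alternatives (highest adjusted p 0.0595). The other ppl.L probe sets, at -0.23 and -0.045, were not called.

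With T3 48 h array 1 left out, 3 partner probe sets were called higher than in vehicle and 2 lower, beside 11.1% and 12.4% of all tested probe sets. Those higher were s100a10.L (0.70, adjusted p = 0.0301 in limma), plat.L, the tissue plasminogen activator (0.64, adjusted p = 0.0437), and pdcd6.L, which encodes ALG-2 (0.61, adjusted p = 0.0352). Those lower were Xl.13246.1.S1_at of ppl.L (-1.07, adjusted p = 0.00225) and a second ppl.L probe set (-0.36, adjusted p = 0.0436), while capn1.L was not called (-0.38, adjusted p = 0.0559). Over all 9 arrays pdcd6.L was at 0.46 (adjusted p = 0.126) and plat.L at 0.53 (adjusted p = 0.0858). The muscle repair protein trim72.L and sorcin (sri.L and sri.S) were not called in any comparison, with or without that array.

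Relative to T3 6 h, 1 partner probe set was called higher in T3 48 h tails and 3 lower, beside 7.51% and 11.9% of all tested probe sets. The one higher was plat.L (0.82 ± 0.19 SE, adjusted p = 0.0135 in limma), a call lost on leaving out T3 6 h array 1 (0.0542) or T3 48 h array 3 (0.0515). The lower ones were evpl.L, envoplakin (-1.05 ± 0.15, adjusted p = 0.00222), ppl.L (-0.72 ± 0.18, adjusted p = 0.0199) and capn1.L (-0.52 ± 0.12, adjusted p = 0.0144). The evpl.L call held in all 16 alternatives, that of ppl.L was lost in 4 and that of capn1.L in 2. Against vehicle evpl.L did not pass at 48 h (-0.34, adjusted p = 0.165). At 6 h 0 partner probe sets were called in limma over all 9 arrays, beside 0.172% of all tested probe sets higher and 0.0493% lower. With array weights evpl.L (0.70, adjusted p = 0.0226 in limma) and s100a10.L (0.61, adjusted p = 0.0408) were higher, in a fit whose share over all tested probe sets was not taken.

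Markers of the cell types that a tail pool holds were read beside these results. Of 29 tested epidermal probe sets, 9 fell and 1 rose at 48 h against vehicle, beside 6.05% of all tested probe sets called lower and 4.94% higher. Their median difference was -0.57, beside -0.046 over all tested probe sets. Without T3 48 h array 1, 10 fell and 1 rose, beside 12.4% of all tested probe sets called lower and 11.1% higher. Summed over the 35 epidermal probe sets, linear intensity in array medians was 539 to 675 in T3 48 h tails, 924 to 984 in T3 6 h tails and 825 to 912 in vehicle tails. Those that fell were probe sets of krt12 keratins, krt15.1.S, krt19.L and 1 of ppl.L. They included krt12.4.L, at -3.15, and krt15.1.S, at -1.22. Probe sets of krt8, krt18, krt70, krt19.S, evpl, epcam, cldn1, cldn4, perp and dsp were not called over all 9 arrays. Those of epcam, cldn1, cldn4, perp and dsp lay between -0.57 and -0.033. Tested probe sets of krt8, krt18 and krt70 lay between -1.53 and -0.46, evpl.L at -0.34 and krt19.S at 0.011. The largest of these falls, of krt18.1.S, had an adjusted p of 0.0521 in limma. Without T3 48 h array 1, dsp.S was called lower (-0.62, adjusted p = 0.0461) and krt12.2.S lost its call (-1.85, adjusted p = 0.0591). The summed intensity leans on krt12.5.S, which had the highest vehicle mean of the list, 8.10, against 6.99 in T3 48 h tails. For krt12.4.L the mean was -1.89 in T3 48 h tails and 1.26 in vehicle tails, so the size of its difference depends on the background correction. Of the 9 that fell, 2 had no T3 48 h array above the array median, krt12.4.L and krt12.4.S. These passed the level filter only through T3 6 h and vehicle arrays, so their calls are a description. The keratin that rose, krt78.6.L, passed the level filter only through its T3 48 h arrays, so its call is a description. Below the level filter, 2 epidermal genes lay higher at 48 h than in vehicle without passing in the fit of all probe sets. They were the keratin krt12.6.S (2.08 ± 0.53 SE, adjusted p = 0.0609 in limma) and the transcription factor gene tp63.L (0.89 ± 0.26, adjusted p = 0.0915). Both had vehicle means below the array median, so these sizes depend on the background correction. The other epidermal probe sets below the filter lay between -0.073 and 0.032. The epidermal list holds ppl and evpl, so it is not separate from the partner list. The fall of the epidermal probe sets called lower stands beside that of anxa9.L, and its part in it was not tested. Of the notochord and cartilage list 3 of 4 tested probe sets fell at 48 h, beside 6.05% of all tested probe sets called lower. They were cnmd.L, col2a1.S and col9a1.L, while sox9.S was not called (-0.30, adjusted p = 0.366 in limma). Below the level filter, in the fit of all probe sets, shh.L was at -0.69 (adjusted p = 0.0352) and col9a2.L at -1.07 (adjusted p = 0.0690). Both had vehicle means below the array median, so these sizes depend on the background correction. Those of matn1.L and ntn1.L lay between -0.076 and 0.083. Summed over the 9 probe sets of the list, intensities were 8.92 to 21.9 in T3 48 h tails against 24.6 to 38.5 in vehicle tails. The median difference of that list was -1.52, and -1.98 without array 1, where 3 again fell, beside 12.4% of all tested probe sets.

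Leukocyte markers were of interest for annexins A1 and A3. Of their 8 tested probe sets, 0 were called higher or lower in limma in any comparison over all 9 arrays. Over all tested probe sets, 4.94% were called higher and 6.05% lower at 48 h against vehicle. The shares were 0.172% and 0.0493% at 6 h against vehicle, and 7.51% and 11.9% for T3 48 h against T3 6 h. With so few probe sets, 0 calls are not read as a result about leukocytes. The leukocyte median at 48 h against vehicle was 0.28, beside -0.046 over all tested probe sets. Leukocyte intensity summed over 12 probe sets was 59.3 to 121 in T3 48 h tails, 66.3 to 73.1 in T3 6 h tails and 55.9 to 78.2 in vehicle tails. On the T3 48 h arrays mpo.L was at 4.30, 1.91 and 4.93 and lyz.L at 0.24, -0.079 and 3.71, so that range leans on single genes. The pan-leukocyte gene ptprc.L and the integrin itgb2.L lay below the level filter. With T3 48 h array 1 left out, 1 leukocyte probe set was called lower and 0 higher in T3 48 h tails against vehicle. The shares of all tested probe sets were then 12.4% lower and 11.1% higher. Against T3 6 h, 1 was higher and 1 lower, beside 11% and 14.7% of all tested probe sets. Muscle markers had 0 of 26 called at 48 h against vehicle, with a median of 0.027, beside 4.94% of all tested probe sets called higher and 6.05% lower. Without array 1 they had 1 higher and 1 lower, beside 11.1% and 12.4% of all tested probe sets. Erythroid markers had 0 of 5 called in any comparison over all 9 arrays, beside the shares of all tested probe sets given with the leukocyte markers. That count is likewise not read as a result about erythroid cells. Erythroid medians against vehicle were 0.52 at 48 h and 1.07 at 6 h, beside -0.046 and 0.026 over all tested probe sets. At 6 h all T3 arrays of hba3.L, hba4.S, hbd.S and hbg2.L lay above all vehicle arrays, while hba2.L overlapped. The share of all tested probe sets without overlap was not taken. The 6 h difference of hba3.L was 1.07 (adjusted p = 0.0587 in limma). Without T3 48 h array 1, hba3.L was called higher at 6 h, where the share over all tested probe sets was not taken. In the endothelial list egfl7.S lay higher at 48 h by 0.64 (adjusted p = 0.0314 in limma), 1 of 4 tested, beside 4.94% of all tested probe sets called higher. Without T3 48 h array 1 the egfl7.S difference was 0.52 (adjusted p = 0.0398). egfl7.S passed the level filter only with the help of its T3 48 h arrays, so its call is a description. Its vehicle mean was -0.098, so the size of its difference depends on the background correction. The part of these cell types in the annexin differences was not tested.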

How the data were processed

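RNA from pools of 3 tails was hybridised to 9 Affymetrix Xenopus laevis arrays in 3 groups of 3. The deposited values are linear intensities that the authors made with GCRMA, per the submitters' processing notes. Its version and other steps are not given in the sources used here. Every array has a median of 1, so each had been divided by its own median. Of 15611 probe sets, 120 controls were left out. Gene symbols came from the platform annotation (9304 probe sets with 1 gene, 195 with several, 5992 with none). All 24 annexin probe sets with 1 gene matched a RefSeq gene, with no symbol changed.

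Log2 values of all 9 arrays were fitted in limma 3.58.1 (R 4.3.3) with group as factor and an intensity trend, two-sided, and p-values were adjusted by Benjamini-Hochberg over the 8121 probe sets above the array median in at least 3 arrays. Adjusted p under 0.05 was called. Members below the filter come from the fit of all probe sets. The fit was tested on simulated data with independent noise and no shift shared across an array. That test therefore does not cover the departure of T3 48 h array 1. Nothing says whether pools came from separate clutches, so p-values measure the spread between pools, and the number of arrays limits precision. Members and lists were chosen with earlier results of these data known. Every annexin probe set is named, with the 5 genes closest to anxa1.3.S, and of the partner list the called and S100 genes, trim72.L, pdcd6.L and sorcin being added after their values were seen, as were calls without T3 48 h array 1. Alternatives changed the filter, scaling, weights, samples in the fit and pairing.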

Additional observations from a re-analysis of the deposited data

Results flagged for a closer look

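T3 48 h and T3 6 h tails differed for 5 annexin probe sets by the test of T3 48 h against T3 6 h in limma. As both share the vehicle arrays, their differences from vehicle were unlike by the same amounts. Longer exposure and later collection cannot be told apart here, and no vehicle tails were taken at 6 h. The log2 difference was -1.64 for anxa9.L, -0.53 for anxa7.L, -0.70 for Xl.22165.1.A1_s_at of anxa7.S, -0.43 for anxa3.L and 1.01 for Xl.23787.3.S1_at of anxa5.S. That is 1 higher and 4 lower of 22 probe sets, where 7.51% of all tested probe sets were called higher and 11.9% lower, so the count is not a result about annexins. The call of anxa7.L held in all 16 alternatives. That of anxa9.L held in all but the level filter of log2 2, under which it was not tested. anxa3.L lost its call in 13, Xl.23787.3.S1_at in 2 and Xl.22165.1.A1_s_at in 1. For anxa9.L and Xl.22165.1.A1_s_at the mean lay below vehicle at 48 h and above it at 6 h, and neither 6 h difference passed. For anxa7.L the T3 6 h and vehicle means were both 4.65. For anxa3.L it was the T3 6 h group, at 3.76 ± 0.15, that stood apart from T3 48 h tails at 3.32 ± 0.09 and vehicle tails at 3.36 ± 0.13 (SD, n = 3 each).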

How the results depend on the processing

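The fall of anxa9.L kept its direction in all 16 alternatives, against vehicle (log2 -1.34 to -1.25, adjusted p of 0.000851 to 0.0167 in limma) and against T3 6 h (-1.84 to -1.54). Its call held in all but the level filter of log2 2, which it does not pass. Under that filter it was not tested, and its value comes from the fit of all probe sets. anxa7.L against T3 6 h kept its call in all 16 alternatives (-0.61 to -0.46), and the other 4 of 7 called annexin differences lost their call in at least 1 alternative. anxa1.3.S stayed at 2.93 to 3.62 against vehicle at 48 h, and at 6 h it ranged from -0.41 to 0.29 with 1 array left out. Of 49 further annexin differences, none called in any setting, 18 changed sign in some, at sizes of up to 0.14. Counts of called annexin probe sets beside anxa1.3.S, with 1 array left out, ranged from 0 to 3 higher and 1 to 5 lower for T3 48 h against vehicle and from 0 to 3 higher and 2 to 5 lower for T3 48 h against T3 6 h. Array weights gave 2 higher and 3 lower at 48 h, 2 higher and 0 lower at 6 h, and 2 higher and 6 lower between the T3 groups. Shares of all tested probe sets called were taken only for the main fit and, for T3 48 h comparisons, without T3 48 h array 1. Counts in the other settings are therefore not read as results about annexins. A level filter of log2 2 left 1 lower at 48 h, since anxa9.L is not tested there, and the fit of only the 2 groups compared also left 1. With the replicate block, 1 was higher at 48 h, Xl.23787.3.S1_at of anxa5.S (adjusted p = 0.0488). Between groups, deviations from the group mean correlated at -0.13 to 0.10 for arrays with the same number and at -0.18 to 0.15 for arrays with different numbers. No pairing of pools by number was seen, but correlations from 3 arrays per group cannot exclude one. The cause of the shifts in counts was not tested, and values below the array median, as for anxa9.L at 48 h, are limited by background correction.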
